A study of Bos taurus with 6 samples.

Results

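Long noncoding RNAs (lncRNAs) expressed in bovine deep zone articular chondrocytes were compared between cells without and with induction of the transcription factor CREB5. The genes were those listed as lncRNA in the authors' deposited annotation with a mean of at least 10 normalized counts over the 6 libraries, which held for 217 of 1480 lncRNA genes. The table lists 27607 genes in all, of which 13180 had such a mean and 12843 of these were protein-coding. The members were thus chosen by their mean level, and levels are given as a description without a test. The same limit kept 58.7% of protein-coding genes and 14.7% of lncRNA genes, and 745 lncRNA genes (50.3%) had a read in any library.

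The cells were chondrocytes of the deepest layer of joint cartilage, taken from 3 independently collected knees, infected with a lentivirus that carries a doxycycline-inducible bovine CREB5 and selected with G418. Both groups were then kept for 3 days on low attachment plates in medium with 10% FBS, the growth factors TGFb2, at 20 ng/ml, and, at 100 ng/ml, TGFa. The Dox- group (3 libraries) had no doxycycline, and the Dox+ group (3 libraries) had doxycycline, at 1 µg/ml per the labels' treatment protocol, while the design text has that figure as mg/ml. No doxycycline-treated cells without the CREB5 vector were among these samples, so effects of doxycycline and of CREB5 cannot be told apart.

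Long noncoding RNAs are transcripts that carry no long open reading frame. Many are spliced and polyadenylated like messenger RNAs, some stay in the nucleus and act on chromatin or on nuclear bodies, and others are host transcripts of small RNAs. They are known for low and cell type-restricted expression. The libraries were made from purified mRNA, a step that favours polyadenylated RNA, so lncRNAs without a poly(A) tail are measured incompletely by such libraries.

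The libraries held between 20063379 reads (Dox+ 3) and 122366790 reads (Dox+ 2), and 3 reads, the limit that a count of 0 allows, were worth between 1.32 normalized counts (Dox+ 2) and 6.98 (Dox+ 3). This limit covers counting error only. CREB5 stood at 308 to 510 normalized counts in the Dox- libraries and at 12413 to 21964 in the Dox+ libraries. Each library therefore lay on the side its label gives.

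Some markers of the cells themselves differed between the groups. Of 10 chondrocyte markers 9 have a symbol in the table, and all 9 passed the level limit, with a summed level of 155728 to 303219 normalized counts in Dox- and 103881 to 120626 in Dox+ libraries. In limma 3 of them were lower in Dox+ cells, namely the proteoglycan gene ACAN (4.78-fold), the collagen gene COL9A1 (5.60-fold) and the matrix protein gene CHAD (7.05-fold), and the matrilin gene MATN3 was 16.2-fold higher. Of all genes tested, 2.88% were called in this fit. The other 5 markers did not pass. Their log2 fold changes included -0.02 for SOX9 (limma adjusted p = 0.99), -0.27 for HAPLN1 (0.83), -0.68 for COL11A1 (0.25) and -1.59 for COMP (0.51). COL2A1, the collagen of hyaline cartilage, was at 41283 ± 20422 and 14474 ± 7515 (SD, n = 3; limma adjusted p = 0.22, and 0.0023 with the replicate block, described below).

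Of 14 markers of other cell types, 8 passed the level limit and 0 were called without the block (3 at an unadjusted p under 0.05; edgeR called 0 and DESeq2 2). With the block the muscle filament gene DES was 3.23-fold higher (limma adjusted p = 0.0014), the adipocyte hormone gene ADIPOQ 3.42-fold higher (0.014) and the haemoglobin gene HBA 2.15-fold lower (0.023). The list's summed level, most of it HBA, was 62566 to 112584 in Dox- and 27283 to 63169 in Dox+ libraries. The macrophage gene CD68 was at 138 to 582, and the endothelial genes PECAM1 and VWF were at 11.6 to 101 and 23.7 to 77.8. The leukocyte gene PTPRC reached at most 2.33, CDH5 at most 3.68 and HBB at most 0.441, and MYOD1 was at 0 in every library. The part of these marker differences in the results on lncRNAs was not tested.

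Few of the 217 genes can be named. A symbol is given for 5 of them, and all 5 symbols belong to genes known to encode proteins. They are CDC42SE1, an effector of the small GTPase CDC42; EEF1AKMT1, a lysine methyltransferase of a translation factor; CEBPG, a bZIP transcription factor; COL9A2, a chain of the cartilage collagen type IX; and ENHO, which encodes the secreted peptide adropin. An Entrez identifier was given for 12 genes, and 10 of these had a match in the RefSeq genes of ARS-UCD2.0. RefSeq lists 8 of the 10 as protein-coding, 3 of which carry the symbols above, and 2 as lncRNA (LOC100296900 and LOC112443160). In all, 10 of the 217 genes carried the symbol of a protein-coding gene or matched one, and each of these 10 had a mean of at least 100, a level that 65 of the 217 reached. Of 85 symbols of well-known lncRNAs, such as those of XIST, H19 and MALAT1, 0 were the symbol of an lncRNA gene in the table. A gene listed under another biotype carried 1 of the 85. The remaining 205 of the 217 genes are given by their Ensembl identifiers, with no role, and no sequence was used for any of them.

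In counts, the lncRNA genes were expressed at a fraction of the level of protein-coding genes. Their median over genes of the mean normalized count was 36.0 (quartiles 18.4 and 134), against 780 (188 and 2220) for protein-coding genes that passed the same limit. Of the lncRNA genes 55.8% had a mean under 50, against 11.5% of protein-coding genes, and 8.29% reached 1000, against 44.2%. Normalized counts are not divided by transcript length, which the files do not give, so the difference is one of read counts and not of molecules. The genes nearest to the limit had means of 10.1, 10.2 and 10.2 just inside it and 9.73, 9.86 and 9.98 just outside it. The median lncRNA gene had 273 reads over all 6 libraries together, the lowest had 51, and 36 genes had under 100.

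**Figure D1:**
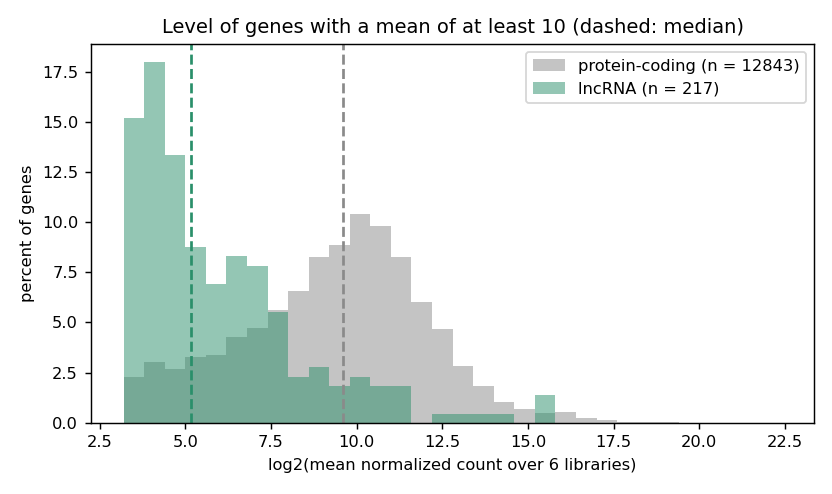
Distribution of the mean normalized count (log2, horizontal axis) as a percentage of genes (vertical axis) for 217 lncRNA genes and 12843 protein-coding genes whose mean reached 10, with dashed lines at the medians. The lncRNA genes pile up next to the limit, with a median of 36.0 normalized counts against 780 for protein-coding genes.

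Values of single libraries are given in the order of the numbers 1, 2 and 3. The level was even across libraries. The median over the 217 genes was 38.0, 42.9 and 36.1 normalized counts without doxycycline and 42.3, 34.0 and 39.5 with it, so the groups overlapped. A read was detected in each of the 6 libraries for 213 of the 217 genes. Of the other 4, 1 had 0 reads in all Dox- libraries and 0 genes had no read in all Dox+ libraries. The limit on the mean was met in both groups by 188 genes. Another 19 genes met it in Dox+ cells and lay below it in Dox- cells, and 10 lay the other way round.

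Together the 217 genes held 0.364%, 0.534% and 0.323% of all normalized counts without doxycycline and 0.437%, 0.395% and 0.340% with it. The 95% Wilson interval of the shallowest library, Dox+ 3, ran from 0.337% to 0.342%, and the other intervals were narrower. The highest and the lowest share both lay in the Dox- group. Group means were 0.407% ± 0.112 (SD, n = 3) without and 0.391% ± 0.0489 (SD, n = 3) with doxycycline, a difference smaller than the spread between libraries (exact two-sided permutation test, p = 0.90, where 0.10 is the smallest p that 3 against 3 libraries can give). By number, the Dox+ share was higher in pairs 1 and 3 and lower in pair 2. The sign of the difference, -0.0166 percentage points with all libraries, turned without Dox- 2 (0.0468) and without Dox+ 3 (0.00893).

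A few genes made up most of this share. The 3 with the highest means, ENSBTAG00000048781, ENSBTAG00000052369 and ENSBTAG00000052187, took between 51.9% (Dox- 3) and 69.5% (Dox- 2) of the lncRNA counts, and the highest 10 took between 79.6% and 88.4%. Without the highest 3, the share was 0.155% ± 0.00824 in Dox- and 0.158% ± 0.00998 in Dox+ libraries (SD, n = 3, exact two-sided permutation test, p = 0.70), so the library with the highest share no longer stood apart.

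ENSBTAG00000048781 was at 39184, 64098 and 44448 normalized counts without doxycycline and at 40348, 49641 and 26959 with it. ENSBTAG00000052187 was at 33552, 57527 and 32824 and at 46666, 39416 and 37458 in the same order. Both sets of groups overlapped. ENSBTAG00000052369 varied most among the highest 10, with 38576, 98183 and 12383 without doxycycline and 54673, 34594 and 25478 with it. Its 2 extremes were both Dox- libraries, 7.93-fold apart, and the Dox+ libraries lay between them.

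Below these stood ENSBTAG00000051151, with a mean of 16475 and libraries no more than 1.39-fold apart, ENSBTAG00000052759 (mean 11537) and ENSBTAG00000051191 (mean 9677). The seventh, CDC42SE1, was at 5869, 4396 and 5085 without doxycycline and at 6195, 5110 and 5853 with it, and was 1 of the 5 steadiest genes with a mean of at least 50. None of the highest 10 passed the limma test, with adjusted p between 0.56 and 1.00. ENSBTAG00000050527, the eighth, was called in 1 alternative fit, with the replicate block and without the libraries numbered 3 (limma adjusted p = 2.4e-06), and in none of the other alternatives. That fit keeps few residual degrees of freedom, and the pairs left in it went in opposite directions. The gene went from 2499 to 2577 in the libraries numbered 1 and from 5960 to 1677 in those numbered 2, so the call is not read as a difference.

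**Figure D2:**
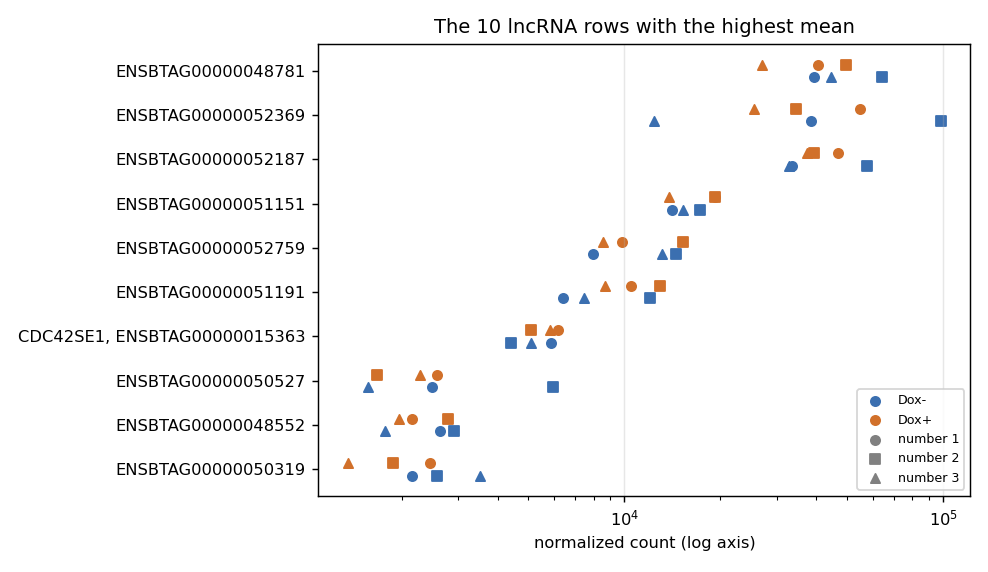
Normalized counts (log axis) of the 10 lncRNA genes with the highest mean, with 1 point per library, colour for the group and shape for the number. Blue and orange points overlap for each gene, and ENSBTAG00000052369 spreads from 12383 in Dox- 3 to 98183 in Dox- 2.

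Spread between libraries of a group was measured as the within-group standard deviation (SD) of log2(normalized count + 1), pooled over both groups. Its median was 0.59 over the lncRNA genes (quartiles 0.44 and 0.84) and 0.34 over protein-coding genes (0.23 and 0.54). Spread falls with level, so genes were also set side by side within ranges of the mean normalized count. Between 10 and 20 the median SD was 0.77 for 64 lncRNA genes and 0.88 for 625 protein-coding genes, between 20 and 50 it was 0.66 (57 genes) and 0.68 (855), and between 50 and 100 it was 0.54 (31) and 0.55 (799). In these 3 ranges the lncRNA median was the lower one. From 100 to 500 it was the higher one, at 0.51 (37 genes) against 0.40 (2922), and likewise from 500 to 5000, at 0.43 (21) against 0.28 (6126). Above 5000 there were only 7 lncRNA genes, with 0.39 against 0.27 for 1516 protein-coding genes. The ranges from 100 on hold all 10 genes that carry the symbol of a protein-coding gene or match one. They are among 65 lncRNA genes with a mean of at least 100, and the spread without them is not given. These ranges are also wide, so levels may still differ within them. The medians are descriptions over genes, which are not replicates, and carry no test.

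**Figure D3:**
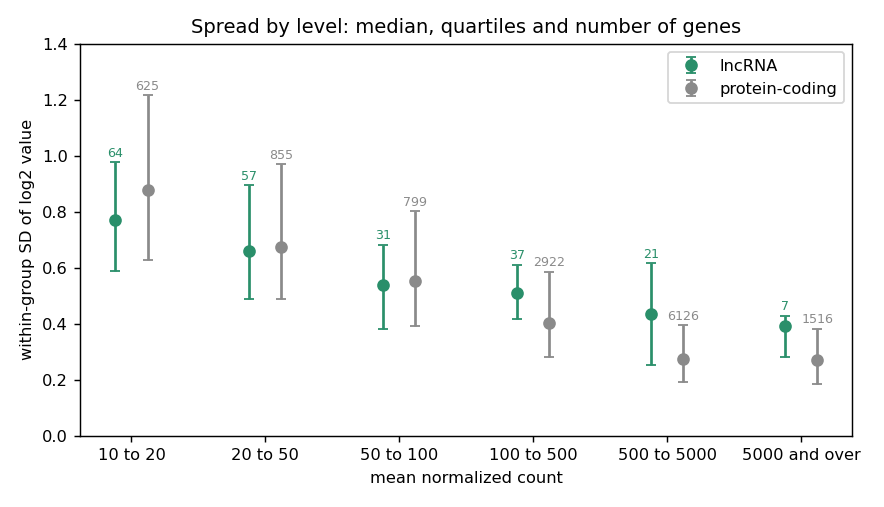
Within-group SD of log2 values (vertical axis) by range of the mean normalized count (horizontal axis), with points at the median, bars at the quartiles and the number of genes above each bar. The lncRNA median lies below the protein-coding median in each range up to 100, as between 10 and 20, at 0.77 and 0.88. It lies above it in each range from 100 on, as between 500 and 5000, at 0.43 and 0.28.

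The number in the sample titles was taken to pair a Dox- with a Dox+ library. When the number was added to the fit as a block, the median SD was 0.45 for the lncRNA genes and 0.25 for protein-coding genes. The blocked SD rests on fewer residual degrees of freedom, which by itself lowers a median SD, so these medians do not measure how much of the spread follows the number. The SD of single genes also rose, as for ENSBTAG00000054745, from 0.77 to 1.01. Of the 5 genes with the largest SD among those with a mean of at least 50, some kept their order by number in both groups. ENSBTAG00000050113 was at 162, 35.5 and 134 normalized counts without doxycycline and at 152, 11.0 and 58.1 with it. It was lowest in the libraries numbered 2 in both groups, and its SD was 1.55 without and 0.55 with the block. ENSBTAG00000054639 (27.6, 166 and 32.4, then 30.5, 92.2 and 39.5) and ENSBTAG00000051730 (11.6, 129 and 47.7, then 22.0, 64.9 and 34.9) were highest in the libraries numbered 2 and lowest in those numbered 1 in both groups.

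The SD of ENSBTAG00000054639 was 1.15 without and 0.43 with the block, and that of ENSBTAG00000051730 was 1.31 and 0.67. The other 2 kept most of their SD under the block, ENSBTAG00000050748 with 1.196 and 1.108 and ENSBTAG00000052369 with 1.13 and 0.95. The 5 genes with the smallest SD, from 0.12 to 0.18, were ENSBTAG00000053856, ENSBTAG00000052882, ENSBTAG00000054879, ENSBTAG00000048982 and CDC42SE1. In none of them did the highest library exceed the lowest by more than 1.45-fold.

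Which lncRNA genes differed when CREB5 was induced was asked by comparing Dox+ with Dox- cells. In limma, 3 of the 217 genes were higher and 1 was lower at an adjusted p under 0.05, or 1.84% of them, against 2.88% of all 13180 genes tested and 2.91% of protein-coding genes. In the higher direction these were 1.38% against 2.52% of all tested genes, and in the lower direction 0.461% against 0.357%. With the replicate block 6 lncRNA genes were higher and 3 lower, or 4.15%, against 6.51% of all genes tested (4.86% higher and 1.65% lower). Of all genes tested, edgeR called 2.6% and DESeq2 5.32%, and of the lncRNA genes 2 and 7. All 4 genes called without the block were among the 9 called with it. A count of so few is close to the background, and a difference in the share of calls between lncRNA and other genes was not tested. All 3 rises had a Dox- mean under 10, so they passed the level limit only through the Dox+ group.

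The median log2 fold change was -0.01 over the lncRNA genes, with 105 above and 112 below 0, and -0.0026 over protein-coding genes. The 95% intervals were wider for lncRNA genes, reaching a median of 1.23 to either side on the log2 scale, a 2.35-fold change either way, against 0.63, or 1.55-fold, for protein-coding genes. For 30 lncRNA genes (13.8%) the whole interval lay within a 2-fold change in either direction, against 57.4% of protein-coding genes. With the block it did so for 54 (24.9%) and for 67.5%. For most lncRNA genes, then, a 2-fold difference lay inside the interval, and a gene that did not pass was not shown to be equal in both groups. The groups did not overlap for 13 lncRNA genes higher and 17 lower in Dox+ libraries, or 5.99% and 7.83%, against 8.88% and 6.29% of all genes tested.

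**Figure D4:**
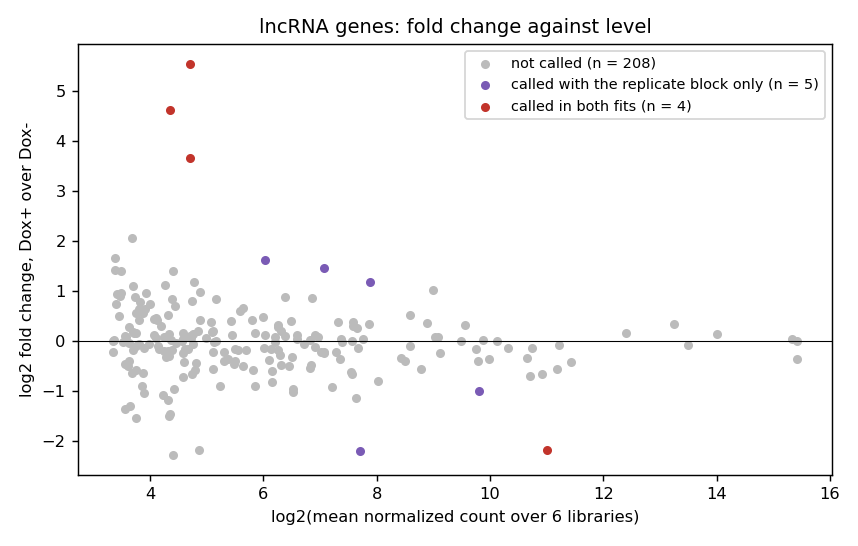
Log2 fold change of Dox+ over Dox- (vertical axis) against the mean normalized count (log2, horizontal axis) for the 217 lncRNA genes, coloured by whether they were called. The 3 called rises, with fitted values between 3.66 and 5.54 that depend on the 1 added to each count, lie at means under 50, and the called fall at -2.18 lies at a mean of 2058.

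ENSBTAG00000054811 had 0 reads in each Dox- library and 42.3, 24.3 and 90.7 normalized counts in the Dox+ libraries, from 25, 55 and 39 reads. The gene was thus detected in the 3 Dox+ libraries alone. Its Dox+ mean of 52.4 ± 34.3 (SD, n = 3) was at least 19.4-fold higher than the average of the Dox- floors, each worth 3 reads per library (limma adjusted p = 0.0061, and 0.054 without Dox+ 3).

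ENSBTAG00000050646 was at 1.84, 0 and 0.612 without doxycycline, which is 3, 0 and 1 reads, and at 42.3, 33.5 and 44.2 with it. The lowest Dox+ library stood far above the highest Dox- library. It rose 24.5-fold on the log2(normalized count + 1) scale, from 0.817 ± 0.937 to 40.0 ± 5.68 (SD, n = 3), with a log2 fold change of 4.62 and an SE of 0.72 (limma adjusted p = 0.0097, and 0.070 without Dox+ 3). Over the alternatives the log2 fold change of this low gene ran from 2.96, with a pseudocount of 5, to 5.58.

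ENSBTAG00000049704 was at 1.23, 1.48 and 8.56 without doxycycline and at 52.5, 30.01 and 62.8 with it. Dox- 3 was the highest of its group, with 14 of the 17 Dox- reads, and still lay below each Dox+ library. The rise was 12.6-fold (log2 fold change 3.66 with an SE of 0.75, adjusted p by limma = 0.036, and 0.0043 with the block). Leaving out any of Dox- 1, Dox- 2 and the 3 Dox+ libraries ended this call, with adjusted p of 0.065, 0.11, 0.14, 0.059 and 0.20. The log2 fold change was 4.33 without Dox- 3 and 2.65 with a pseudocount of 5.

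ENSBTAG00000054745, the gene called lower, ranked 11 by mean among the 217 and was measured with many reads. It was at 2372, 3098 and 4455 without doxycycline and at 1117, 982 and 321 with it. The groups did not overlap, and Dox+ 3 was the lowest library. It fell 4.53-fold, from 3309 ± 1057 to 806 ± 426 (SD, n = 3), with a log2 fold change of -2.18 and an SE of 0.46 (limma adjusted p = 0.041, and 0.010 with the block). The gene's own within-group SD rose from 0.77 to 1.01 under the block, while limma's SE, which also draws on the spread of other genes, was 0.41. The smaller blocked p thus does not show that its pairs agreed more closely. Leaving out Dox- 2, Dox- 3 or Dox+ 3 ended the call, with adjusted p of 0.12, 0.16 and 0.061. In the blocked fit without the libraries numbered 3 the log2 fold change was -1.37.

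**Figure D5:**
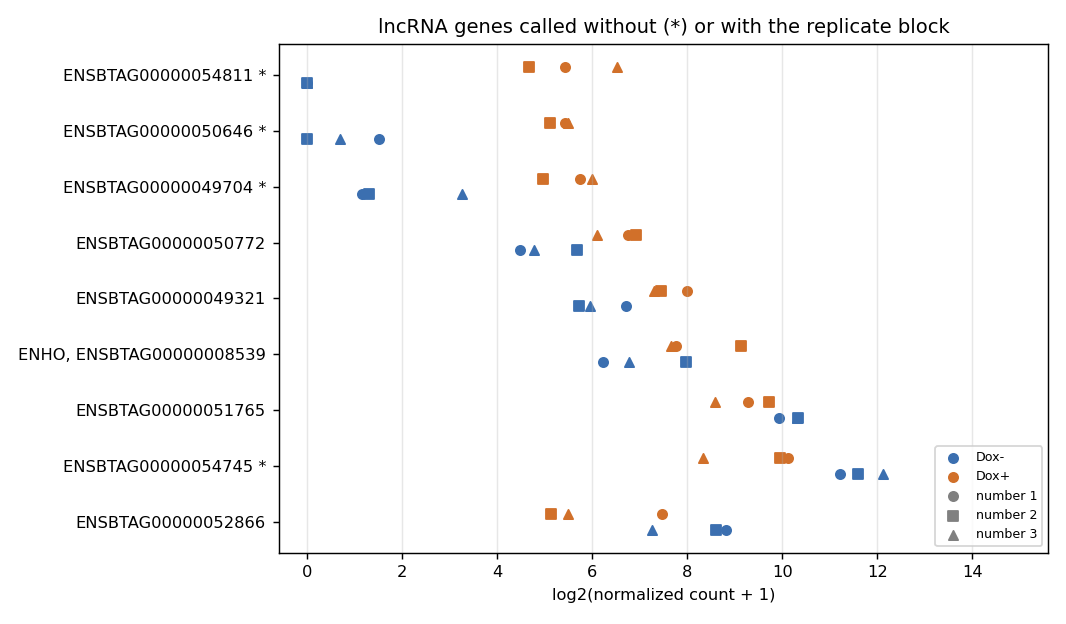
Levels on the log2(normalized count + 1) scale of the 9 lncRNA genes called without (marked with a star) or with the replicate block, with 1 point per library, colour for the group and shape for the number. In 7 of the 9 genes the groups do not overlap, and in ENHO and ENSBTAG00000052866 they overlap while each Dox+ library lies on the same side of its Dox- partner.

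Another 5 genes passed limma with the block, which compares libraries of the same number, and not without it. Of these, ENSBTAG00000049321, ENSBTAG00000050772 and ENSBTAG00000052866 also passed DESeq2 without the block, with adjusted p of 0.018, 0.039 and 0.035. ENSBTAG00000049321 was at 104, 51.8 and 60.5 without doxycycline and at 256, 173 and 156 with it, 2.74-fold higher in the fit (limma adjusted p = 0.11, and 0.015 with the block). ENSBTAG00000050772 was at 21.5, 50.3 and 26.3 and at 107, 120 and 67.4 in the same order, 3.05-fold higher in limma (0.15 as adjusted p, or 0.033 when blocked). In both genes the groups did not overlap. Both calls were lost from the blocked fit without the libraries numbered 1, with limma adjusted p of 0.061 and 0.30.

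ENHO, the adropin gene listed here as lncRNA, was at 74.2, 251 and 109 without doxycycline and at 217, 563 and 200 with it. The libraries numbered 2 were the highest in both groups, the groups overlapped, and all 3 pairs were higher with doxycycline (2.28-fold, limma adjusted p = 0.50, and 0.025 with the block). The SD of this gene was 0.86 without and 0.23 with the block. Its blocked call was lost without the libraries numbered 1 (limma adjusted p = 0.24).

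ENSBTAG00000052866, which matches the RefSeq protein-coding gene LOC784007, was at 447, 390 and 153 without doxycycline and at 176, 34.0 and 44.2 with it. It was lower in all 3 pairs (4.59-fold in the fit, limma adjusted p = 0.17, and 0.0087 with the block), although Dox+ 1 exceeded Dox- 3. Without Dox+ 1 its log2 fold change moved from -2.20 to -2.92 and it passed limma without the block (adjusted p = 0.035), and in the blocked fit without the libraries numbered 2 it was -1.55. ENSBTAG00000051765, which matches the RefSeq protein-coding gene LOC618256, was at 971, 1281 and 1272 and at 616, 843 and 384 (1.99-fold lower in limma, 0.18 as adjusted p, or 0.045 when blocked). Its groups did not overlap, and it did not pass with the block in edgeR (adjusted p = 0.063) or after TMM rescaling (0.058). Of the 9 genes called with the block, 3 were thus among the 10 that carry the symbol of a protein-coding gene or match one. Without those 10 genes, 5 were higher and 1 was lower with the block, and 3 and 1 without it.

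Of the 4 other genes with a symbol, none passed in either fit. COL9A2 was at 208, 590 and 467 without doxycycline and at 218, 402 and 281 with it, with overlapping groups (log2 fold change -0.41 with an SE of 0.41, 95% interval -1.35 to 0.54, adjusted p by limma = 0.86, and 0.50 with the block). CEBPG was at 585, 944 and 517 and at 420, 1331 and 505, where Dox+ 1 and Dox+ 2 were the lowest and the highest library. EEF1AKMT1 had group means of 1344 ± 273 and 1209 ± 154 (SD, n = 3). The 2 genes that RefSeq also lists as lncRNA did not pass either. LOC100296900 (ENSBTAG00000053714) was at 405 ± 78.9 and 540 ± 198, and LOC112443160 (ENSBTAG00000054422) at 26.3 ± 9.05 and 26.5 ± 4.12 (SD, n = 3).

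Of the 5 largest rises and 5 largest falls at means of 50 or more, some passed in neither fit. ENSBTAG00000053608 was at 142, 500 and 188 without doxycycline and at 96.5, 193 and 67.4 with it, lower in all 3 pairs (log2 fold change -1.13 with an SE of 0.54, adjusted p by limma = 0.55, and 0.052 with the block). ENSBTAG00000049375 was at 339, 518 and 196 and at 565, 697 and 737, with each Dox+ library above each Dox- library (1.02, SE 0.35, adjusted p = 0.26, and 0.078 with the block). ENSBTAG00000054738 and ENSBTAG00000049003 had log2 fold changes of -1.02 (SE 0.55) and 0.88 (SE 0.52), and their groups overlapped. Both ENSBTAG00000053608 and ENSBTAG00000049375 passed DESeq2 with the block (adjusted p = 0.014 and 0.022).

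The authors' deposited table gives an adjusted p under 0.05 for 7 of the 217 genes as higher and 4 as lower, out of 1070 such genes in the whole table of 27607. How many of the 27607 have an adjusted p was not counted, so this count is not set against a background share. The count of 11 is therefore not read as a result on lncRNAs. It comes from the same 6 libraries as the calls above. These 11 genes include all 9 called here with the block, and the other 2 are ENSBTAG00000049375 and ENSBTAG00000053608, for which the authors' deposited table gives adjusted p of 0.019 and 0.017. The smallest adjusted p among the 217 in the authors' deposited table is that of ENSBTAG00000054811 (1.9e-07).

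The transcripts of proteins that act on nuclear and long noncoding RNA were measured in the same libraries. The levels of the proteins themselves were not measured. The list held 31 genes: paraspeckle proteins such as NONO and SFPQ, the nuclear matrix protein HNRNPU, the silencing factor SPEN, the nuclear decay proteins MTREX, ZCCHC8 and ZFC3H1, and splicing and export factors. All 31 were tested, and 0 passed limma in either direction, with or without the block, where 2.88% and 6.51% of all genes tested did. A count of 0 among 31 genes is close to that background. At an unadjusted p under 0.05 limma gave 0 without and 1 with the block, against 10.6% and 16.2% of all genes tested, and edgeR and DESeq2 each called 0. Over the list, log2 fold changes had a median of 0.07 and ran from -0.24 to 0.74. NONO was at 29389 ± 3089 and 31881 ± 3722 normalized counts (SD, n = 3). ZFC3H1, a subunit of a complex that targets polyadenylated nuclear RNA for decay, had the smallest adjusted p of the list, at 0.57, with 5590 ± 818 and 7141 ± 632 (SD, n = 3).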

How the data were processed

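mRNA libraries from 3 Dox- and 3 Dox+ cultures were grouped and numbered by sample title. Gene signal is deposited as normalized counts, scaled by the authors with 1 factor per library. Per the submitters' processing notes, the tools were STAR 2.5.2b, Salmon, DESeq2, MultiQC 1.2 and FastQC 0.11.3 and the builds bosTau9 and ARS-UCD1.2, with no order stated. Whether counting used strand is not given in the sources used, and overlapping or antisense genes cannot be told apart. The authors' deposited comparison table holds log2 fold changes, their standard errors (kept as a score), unadjusted and adjusted p-values, and gene biotypes. Of values above 0, 100% were whole multiples of 1 step within 0.01 read, so reads were recovered, and edgeR on them called 343 of all genes tested. The replicates are cultures of 3 knees.

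Groups were compared with limma's two-sided trend test (limma 3.58.1 in R 4.3.3), run on log2(normalized count + 1) over all 13180 genes with a mean of at least 10, group as the only term, Benjamini-Hochberg adjusted, threshold 0.05. Fold changes are on that scale, which understates those of low genes. Alternatives were a replicate block, pseudocounts, filters, TMM rescaling, libraries left out, and edgeR 4.0.16 and DESeq2 1.42.0 on recovered reads. The numbers were taken as pairs, which the labels do not state. Deviations from the group means correlated within each same-numbered pair (r = 0.65, 0.44 and 0.21 across the tested genes, which are not independent). Between libraries of different numbers r ran from -0.59 to 0.18, the latter for Dox- 3 with Dox+ 2, so pair 3 was hardly set apart. Among the lncRNA genes r was 0.16 for pair 3 and 0.17 for Dox- 3 with Dox+ 2. No libraries of a group agreed within sampling noise (chi-square per degree of freedom 54.8 or more). Members, lists and tests were chosen with earlier results of these data known. Named genes were those called in either fit, the 10 highest means, the 5 largest rises, falls, spreads and smallest spreads at means of at least 50, and those nearest the limit of 10. Genes with a symbol or RefSeq match outside this rule were added after their values were seen.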

Additional observations from a re-analysis of the deposited data

Results flagged for a closer look

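Below the mean of 10 lay 1263 lncRNA genes, 528 of them with a read, which enter no comparison above. Among them 3 genes had 0 reads in every Dox- library and at least 3 reads in every Dox+ library. They were picked from the 528 for this pattern, which is therefore a description and not shown to exceed the control level. No count of this pattern over all genes of the table is set beside it, so the 3 genes are not read as a result on lncRNAs. In Dox+ 2, ENSBTAG00000051520 (1.32 normalized counts) lay below the floor of each Dox- library, and ENSBTAG00000054182 (3.53) below that of Dox- 2 (4.44). ENSBTAG00000051903 had a Dox+ mean of 11.8 ± 4.31 normalized counts (SD, n = 3, from 9, 30 and 3 reads in Dox+ 1, 2 and 3). ENSBTAG00000054182 had 7.45 ± 4.18 (7, 8 and 3 reads), and ENSBTAG00000051520 had 6.93 ± 4.87 (6, 3 and 4 reads). No fold is given for these 3 genes, which were picked for their 0 reads in Dox- libraries. In the other direction 1 gene, ENSBTAG00000050339, had 3, 3 and 10 reads in Dox- 1, 2 and 3 and 0 in every Dox+ library. None of these 4 genes was tested.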

How the results depend on the processing

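Without the block, the 3 higher and 1 lower calls became 0 and 1 at a mean of at least 50, 2 and 0 in edgeR (7 and 8 at an unadjusted p under 0.05) and 5 and 2 in DESeq2, and stayed 3 and 1 with pseudocounts of 0.5 and 5, no filter, or TMM rescaling. With the replicate block, which pairs libraries by number, they were 6 and 3 in limma, 6 and 3 in edgeR, 7 and 5 in DESeq2, 6 and 2 with TMM rescaling, and 5 and 1 without the 10 genes that match protein-coding ones. Leaving out libraries gave 0 to 3 higher and 0 to 2 lower calls, with 0 and 0 without Dox+ 3 (6 and 5 unadjusted), and 3 to 8 and 5 to 10 when whole pairs were left out of the blocked fit. Blocked fits without a pair keep few residual degrees of freedom. Their adjusted p lean on the spread shared across genes, so these counts carry little weight. The DESeq2 and TMM fits with the block, and those without the 10 genes, were chosen after seeing the data. The difference in the lncRNA share ranged from -0.0586 to 0.0468 percentage points as libraries were left out, was 0.00893 without Dox+ 3 and 0.00326 without the highest 3 genes, and was -0.0166 with the block (p = 1.00, exact). The median log2 level of 5.12 was 5.28 with a pseudocount of 5, 7.26 at a mean of at least 50 and 1.43 with no filter. The median SD of 0.59 was 0.51, 0.49 and 0.45 with a pseudocount of 5, at a mean of at least 50 and with the block. The cause was not tested. Between means of 10 and 20, 0 of 64 lncRNA genes and 2.4% of 625 protein-coding genes were called, and 0 and 7.52% with the block. Of the 3 genes called lower with the block, ENSBTAG00000051765 was not among those of edgeR or TMM rescaling with the block.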

Other observations

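The data use a different build from RefSeq's ARS-UCD2.0, whose gene order gave the nearest tested protein-coding gene of 12 genes with a symbol or match. All 12 are listed as lncRNA in the authors' annotation, and 10 of them carry the symbol of a protein-coding gene or match one. LOC618256 (ENSBTAG00000051765), lower in Dox+ cells with the replicate block, lies 1.21 kb from S100A5, a calcium-binding protein gene. The mean of S100A5 was 54.5 normalized counts in Dox- and 11.7 in Dox+ libraries (log2 fold change -2.54, limma adjusted p = 0.18, and 0.028 with the block). ENHO lies next to DNAI1, a dynein gene of motile cilia, which was at 88.5 and 78.4 (log2 fold change -0.19, limma adjusted p = 0.93). For LOC784007 (ENSBTAG00000052866) the nearest tested gene, 666 kb away, was ETV3, an ETS-family repressor, at 1507 and 1442 (limma adjusted p = 0.97). GNAI1, 714 kb from LOC100296900, which was not called, was the other neighbour that passed with the block (log2 fold change 1.48, limma adjusted p = 0.33, and 0.037 with the block). Whether reads of neighbouring genes are shared was not tested.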
